A study of Mus musculus with 696 samples.

Results

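The stress keratins Krt6a, Krt6b, Krt16 and Krt17 were followed through 2 rounds of wounding and healing in single keratinocytes of mouse tail skin. They were chosen by name and make up 4 of the 15652 genes in the count table. All of the 696 cells came from adult female mice of mixed CBA C57BL/6 background that carried the Lrig1-EGFP-ires-CreERT2 allele together with the Rosa26-fl/STOP/fl-tdTomato reporter, in which hydroxytamoxifen put once on the tail before any wound made Lrig1 cells and their progeny red. Recombination depends on the Lrig1 locus, active in upper follicle stem cells, so the sorted tdTomato+ cells are that lineage and unmarked keratinocytes were not sampled. The 4 groups were unwounded skin (0w), skin 1 week after a first full-thickness wound (1w pw1), skin 8 weeks after it (8w pw1) and skin 1 week after a second wound that overlapped the first (1w pw2, labelled as week 9). Each group was sorted onto 2 plates, which are the replicates, and every group, 0w included, carried the same alleles and the same hydroxytamoxifen treatment. The study's methods speak of independent experiments, each with several biological replicates, but the labels do not tie a plate to an experiment or to a mouse, so p-values measure the spread between plates, which may in part be technical. Each time point also has a letter of its own in the labels, so time point and whatever the letter stands for cannot be told apart.

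Keratins build the intermediate filaments of epithelial cells, and each filament pairs a type I with a type II keratin. Krt6a and Krt6b encode near-identical type II keratins, and Krt16 and Krt17 encode type I keratins that can partner them. In intact skin these genes are known mainly from the outer layers of the hair follicle, its companion layer, the nail bed and the skin of palms and soles, and keratinocytes at a wound edge switch them on within hours of injury.

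Both pairs are neighbours in the genome, in the GENCODE annotation of GRCm38. Krt6a lies on the minus strand of chromosome 15 (chr15:101689910-101694307, 9 exons, 1662 coding bases), between Krt6b and Krt5. Krt6b is next to it (chr15:101676023-101680287, minus strand, 9 exons, 1665 coding bases), between Krt75 and Krt6a. Krt16 (chr11:100246091-100248902, minus strand, 8 exons, 1410 coding bases) lies between Krt14 and Krt17, and Krt17 (chr11:100256217-100261029, minus strand, 8 exons, 1302 coding bases) between Krt16 and Krt42. Krt14 and Krt5 are the keratins of the basal layer, so each stress keratin pair sits beside a basal keratin.

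How far the reads can separate the genes is set by their sequence, and the stretches of coding sequence that differ most are shown for that reason. Coding sequences of Krt6a and Krt6b were identical at 97.6% of the alignment (1625 of 1665 columns), against 72.6% for Krt16 and Krt17. Capitals mark bases that differ between the members of a pair. The most different stretch of 60 coding bases in Krt6a and Krt6b lies in exon 4 of each gene (chr15:101692484-101692543 and chr15:101678303-101678362), with 10 differences.
Krt6a: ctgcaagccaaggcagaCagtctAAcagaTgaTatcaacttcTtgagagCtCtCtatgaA
Krt6b: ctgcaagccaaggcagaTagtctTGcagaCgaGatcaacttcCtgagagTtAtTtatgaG
In exon 1 a stretch of the same length was shared without a difference (chr15:101694156-101694215 in Krt6a, chr15:101680131-101680190 in Krt6b).
Krt6a and Krt6b: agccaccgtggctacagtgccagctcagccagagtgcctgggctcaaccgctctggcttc
For Krt16 and Krt17 the most different stretch lies in exon 5 of each gene (chr11:100247159-100247218 and chr11:100257800-100257859), with 19 differences.
Krt16: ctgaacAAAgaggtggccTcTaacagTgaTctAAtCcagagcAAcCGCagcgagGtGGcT
Krt17: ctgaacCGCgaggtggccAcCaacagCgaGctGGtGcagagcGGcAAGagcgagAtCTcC

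Of all 75-base windows of the Krt6a transcript, the length of a read, 56% also occurred in another gene's transcript, and 36.2% occurred in Krt6b. For Krt6b the share was 39.6%, for Krt16 it was 28.9% (mainly with the gene model Gm11597 and with Krt14), and for Krt17 it was 0. Besides those with Krt6b, Krt6a shared 320 windows with the gene model Gm49428 and 142 with Gm5478. Krt6b shared 76 with Gm5478 and 67 with Gm5414, besides those with Krt6a. Counts of Krt6a and Krt6b are thus estimates in which reads from shared windows are divided between the genes that hold them. On the 0w plates, where Krt6a had 962 and 940 estimated counts, Krt6b was given 0.

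Plate totals ran from 12293182 to 19760820 estimated counts, with 79 to 91 cells each, and the median cell held 132595 counts (3551 to 1895079). Keratinocyte identity was checked by markers: Krt14 was detected in 620 cells (89.1%), while summed markers of other cell types reached 25.4 CPM on any plate for fibroblasts (4 of 5 markers have a row in the table), 19.7 for immune cells (3 of 5), 36.2 for Langerhans cells (2 of 3), 1.18 for T cells (2 of 3) and 6.83 for melanocytes (3 of 4). The immune and Langerhans sums were highest on 1w pw2 replicate 2, and their part in the results was not tested. The endothelial sum of 109 to 1846 CPM came almost wholly from Pecam1, which was found in 687 of the 696 cells, while Kdr was found in 4 cells. The 3 Merkel cell markers and Cdh5 have no row and were not analysed here. The summed level of 5 suprabasal markers (Krt1, Krt10, Krtdap, Sbsn, Calm4) moved with time, at 2480 and 3232 CPM (counts scaled to a common library total) at 0w, 41861 and 41579 at 1w pw1, 5417 and 4789 at 8w pw1, and 16074 and 26595 at 1w pw2. The summed upper follicle duct markers ran from 7145 to 29491 CPM over the plates. Cells of a sebaceous gland-like cluster, in which 5 of 5 cycling markers were also detected, were nearly free of Krt6a, Krt6b and Krt16. They numbered 37 of 179 at 0w, 2 of 168 at 1w pw1, 16 of 172 at 8w pw1 and 4 of 177 at 1w pw2. The median share of mitochondrial counts per cell was 22.7% and 30.7% at 0w, 17.9% and 23.9% at 1w pw1, 18.2% and 22.1% at 8w pw1, and 14.3% and 13% at 1w pw2. The part of each of these in the levels and shares of the stress keratins was not tested. Levels on plates are sums over cells in CPM, and they mix the number of expressing cells with the amount per cell, which are taken apart after the levels.

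Krt6a, the most widely expressed type II stress keratin, was present in unwounded skin and highest 1 week after the first wound. The replicate plates stood at 49.9 and 50.7 CPM at 0w, at 5798 and 3230 CPM at 1w pw1, at 334 and 354 CPM at 8w pw1, and at 1070 and 1259 CPM at 1w pw2. No plate of any time point overlapped with a plate of another, which held for 2.05% of all genes tested, and the order was 1w pw1, 1w pw2, 8w pw1, 0w. The group mean was 89.7-fold above 0w in the first healing, 6.84-fold at 8w pw1 and 23.1-fold in the second healing.

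Krt6b, its close copy, was a gene of the healing phases. It had 0 counts on both 0w plates, 5141 and 2464 CPM at 1w pw1, 0.216 and 0.0652 CPM at 8w pw1, and 92.7 and 299 CPM at 1w pw2. The 8w pw1 values rest on 3.5 and 1.10 estimated counts. Against a floor of 3 counts over both 0w plates, the mean was at least 47907-fold higher at 1w pw1 and at least 2468-fold higher at 1w pw2, bounds that cover counting error only. With 1 plate left out the bounds ran from 23496 (without 0w replicate 1) to 64771 and from 1168 (without 1w pw2 replicate 2) to 3767. Between the 2 healings the mean was 19.4-fold higher in the first, and this ratio was 12.6 without 1w pw1 replicate 1, 12.7 without 1w pw2 replicate 1 and 41.0 without 1w pw2 replicate 2.

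Krt16, a type I keratin that pairs with the Krt6 proteins, was near the edge of detection in unwounded skin. Its plates read 0.727 and 1.62 CPM at 0w (13.8 and 29.6 estimated counts), 2421 and 1776 CPM at 1w pw1, 42.0 and 36.1 CPM at 8w pw1, and 276 and 1037 CPM at 1w pw2. Again the 4 time points did not overlap, in the same order as for Krt6a. Means were 1790-fold above 0w in the first healing, 33.3-fold at 8w pw1 and 560-fold in the second, and the second healing was the phase in which its plates disagreed most. Without 0w replicate 2 the same ratios were 2887, 53.7 and 903, and in the second healing the ratio was 884 without 1w pw2 replicate 1 and 235 without 1w pw2 replicate 2.

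Krt17, the other type I member, did not share this course. It was high without a wound, at 962 and 358 CPM at 0w, and read 1260 and 1072 CPM at 1w pw1, 1023 and 852 CPM at 8w pw1, and 3214 and 1978 CPM at 1w pw2. The 2 plates of the second healing lay above all others, while those of 0w and 8w pw1 overlapped, and replicate 1 was the higher plate at each of the 4 time points. Its mean was 1.77-fold above 0w in the first healing, 1.42-fold at 8w pw1 and 3.93-fold in the second, and 2.23-fold higher at 1w pw2 than at 1w pw1, where the other 3 genes were lower at 1w pw2 than at 1w pw1. The ratios to 0w rest on 2 plates that differed, and they were 3.26, 2.62 and 7.25 without 0w replicate 1 and 1.21, 0.975 and 2.70 without 0w replicate 2.

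**Figure D1:**
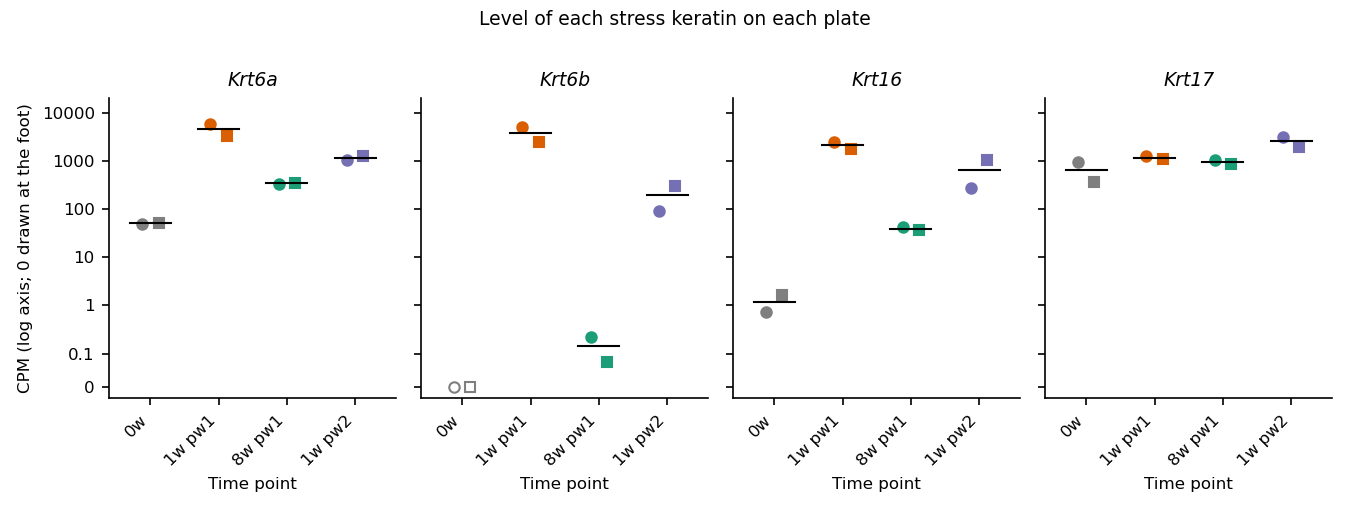
Level of each stress keratin on each plate, in CPM on a log axis with 0 drawn at the foot; circles are replicate 1, squares replicate 2, and bars the group means. Krt6a, Krt6b and Krt16 peak at 1w pw1, from 0 CPM to 5141 CPM for Krt6b, while Krt17 spans 358 to 3214 CPM with its highest plates at 1w pw2.

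During the first healing, Krt6a, Krt6b and Krt16 rose against 0w and Krt17 did not pass the test. The contrast asks which genes differ 1 week after the first wound. With edgeR's quasi-likelihood test over 13853 genes, a call needed more than a 2-fold change and, after Benjamini-Hochberg adjustment, a p under 0.05, and 0.527% of genes were called. Of the stress keratins 3 of 4 were called. The log2 fold change was 6.49 (SE 0.54, adjusted p = 0.00137) for Krt6a, 10.80 (SE 0.95, adjusted p = 0.00153) for Krt16 and 0.82 (SE 0.53, adjusted p = 0.624) for Krt17, and the adjusted p of Krt6b, whose fitted fold has no meaning against 0 counts, was 0.00137. This call of 3 held under each alternative that was run.

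In the second healing, the same 3 genes were higher than at 0w in the edgeR fit, in which 0.267% of all genes were called. The log2 fold change was 4.53 (SE 0.50, adjusted p = 0.0121) for Krt6a and 9.12 (SE 0.89, adjusted p = 0.00651) for Krt16, and Krt6b had an adjusted p of 0.00651. Krt17 was at 1.98 (SE 0.54, adjusted p = 0.187), and DESeq2, which called 4.97% of all genes, gave it an adjusted p of 0.0237, which makes 4 genes. Calls were lost without either 0w plate, in fits that leave 1 plate in that group. With 1 plate left out the log2 fold change ran from 4.43 to 4.62 for Krt6a and from 7.88 to 9.78 for Krt16.

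After 8 weeks the levels of Krt6a and Krt16 lay between those of unwounded and freshly healed skin. Against 0w, edgeR called 0 of 4 (3 had an unadjusted p below 0.05), as it called 0% of all genes (896 had an unadjusted p below 0.05, and DESeq2 called 155, or 1.12%). Log2 fold changes were 2.77 (SE 0.46, adjusted p = 0.218) for Krt6a, 5.05 (SE 0.75, adjusted p = 0.177) for Krt16 and 0.51 (SE 0.52, adjusted p = 0.903) for Krt17. With DESeq2 Krt6a (adjusted p = 5.17e-05) and Krt16 (adjusted p = 4.01e-09) were called higher, so the call depends on the tool.

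From 1w pw1 to 8w pw1 the 3 genes that had risen fell, beside 0.115% of all genes called by edgeR. Krt6a fell by 3.71 (SE 0.48, adjusted p = 0.0284) and Krt16 fell by 5.75 (SE 0.76, adjusted p = 0.0284) on the log2 scale, and Krt6b, down to the few counts given above, had an adjusted p of 0.00606. Krt17 was at -0.31 (SE 0.52, adjusted p = 0.868). Calls were lost without any single plate of either time point, in fits that leave 1 plate in a group. With 1 plate left out the log2 fold change ran from -4.10 to -3.26 for Krt6a and from -5.99 to -5.54 for Krt16.

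The second wound brought Krt6b back from its 8w pw1 level, and it was the 1 gene of the whole table called in 1w pw2 against 8w pw1 (0.00722% of genes, edgeR adjusted p = 0.043). Log2 fold changes of the others were 1.76 (SE 0.44, adjusted p = 0.324) for Krt6a, 4.07 (SE 0.70, adjusted p = 0.167) for Krt16 and 1.47 (SE 0.53, adjusted p = 0.553) for Krt17. The Krt6b call did not hold in every alternative. With every cell weighted equally its adjusted p was 0.0507, with Krt6a and Krt6b summed into 1 gene it was 0.294, and without either 8w pw1 plate or either 1w pw1 plate it ran from 0.0596 to 0.459. With DESeq2, which called 2.03% of all genes, Krt6a, Krt6b and Krt16 were called.

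A direct comparison of the 2 healings asks whether the response to a second wound differs from that to the first. With 1w pw2 set against 1w pw1, 0 of 4 were called in the edgeR fit (3 had an unadjusted p below 0.05), beside 0% of all genes (832 had an unadjusted p below 0.05, and DESeq2 called 41, or 0.296%). Log2 fold changes were -1.95 (SE 0.44) for Krt6a, -4.28 (SE 0.73) for Krt6b, -1.68 (SE 0.63) for Krt16 and 1.15 (SE 0.53) for Krt17, each with an adjusted p of 0.781. The groups did not overlap in any of the 4 genes, nor in 37.3% of all genes tested, and DESeq2 called Krt6a (adjusted p = 0.0349) and Krt6b (adjusted p = 3.97e-06) lower in the second healing.

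Set against its own starting point, each healing began from a different level, since 8w pw1 lay above 0w for Krt6a and Krt16. The log2 change of the second healing (8w pw1 to 1w pw2) less that of the first (0w to 1w pw1) was -4.73 (SE 0.64, edgeR adjusted p = 0.152) for Krt6a, -6.73 (SE 0.98, adjusted p = 0.189) for Krt16 and 0.65 (SE 0.74, adjusted p = 1.0) for Krt17, and Krt6b had an adjusted p of 0.686. For this difference 0 of 4 were called (3 at an unadjusted p below 0.05), beside 0% of all genes (740 at an unadjusted p below 0.05, and 77 with DESeq2, or 0.556%). DESeq2 called Krt6a, Krt6b and Krt16, and a fit with the replicate number as a block called Krt6a (-4.71, adjusted p = 0.0436). With 1 plate left out the Krt17 difference ran from -0.16 (without 0w replicate 1) to 1.22, so its direction is not settled.

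Per kilobase of transcript, which allows genes to be set side by side, the leading stress keratin changed with time. At 0w Krt17 stood at 425 ± 275 CPM per kb (SD, n = 2), Krt6a at 22.1 ± 0.235, Krt16 at 0.749 ± 0.403 and Krt6b at 0. At 1w pw1 the order was Krt6a (1982 ± 797), Krt6b (1701 ± 847), Krt16 (1341 ± 291) and Krt17 (752 ± 85.7), and the first 3 do not differ beyond their spread. Krt17 led again at 8w pw1 (604 ± 78.3) and at 1w pw2 (1674 ± 564), where Krt6a (511 ± 58.7) and Krt16 (419 ± 344) followed without a gap beyond their spread and Krt6b (87.6 ± 65.3) was last.

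Counting cells in place of transcripts, all 4 genes were detected in more cells 1 week after a wound. A cell was positive at an estimated count of at least 1. Krt6a was found in 34.1% and 23.1% of cells on the 0w plates, 64% and 68.4% at 1w pw1, 41.2% and 44.8% at 8w pw1, and 60.5% and 51.6% at 1w pw2. For Krt17 the shares were 55.7% and 52.7% at 0w, 80.9% and 77.2% at 1w pw1, 56.5% and 52.9% at 8w pw1, and 81.4% and 79.1% at 1w pw2. For both genes the 4 plates taken 1 week after a wound had higher shares than the 4 other plates.

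Krt6b and Krt16 started from few cells. Krt6b was found in 0 of 88 and 0 of 91 cells at 0w, counts that allow a share of cells with a detected count of up to 3.41% and 3.30% by a floor of 3 counts (4.11% and 3.97% by the exact 95% interval), in 29.2% and 36.7% of cells at 1w pw1, in 2 and 1 cells at 8w pw1, and in 18.6% and 13.2% at 1w pw2. Krt16 was found in 8 cells on each 0w plate (9.09% and 8.79%), in 52.8% and 51.9% at 1w pw1, in 27.1% and 24.1% at 8w pw1, and in 50% and 41.8% at 1w pw2. The 8w pw1 shares of Krt16 had exact 95% intervals of 18.0% to 37.8% and 15.6% to 34.5%, and the upper bounds at 0w were 17.1% and 16.6%. These intervals cover counting error within a plate and test no difference between time points.

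The 4 plates taken 1 week after a wound (1w pw1 and 1w pw2) were compared with the 4 plates without a fresh wound (0w and 8w pw1) by an exact two-sided permutation test over 70 splits. Mean shares were 61.1% against 35.8% for Krt6a, a difference of 25.3 percentage points. For Krt6b they were 24.4% against 0.876% (23.6 points), for Krt16 49.1% against 17.3% (31.8 points) and for Krt17 79.7% against 54.4% (25.2 points). Each of these gave p = 0.0286, the smallest the splits can give, with the 4 healing plates above the 4 others for each gene, as for 12.2% of all genes tested. With splits kept within replicate numbers each gene gave an exact p of 0.0556, the smallest of those 36 splits, so that test could not pass 0.05. Leaving out 1 plate raised the exact permutation p to 0.0571 for Krt6b (any 0w or 8w pw1 plate) and for Krt6a (0w replicate 2). With a positive cell set at 10 counts the Krt6b difference was 15.5 points. At 100 CPM it was 14.7 points for Krt6b and 21.1 points for Krt16. Plates of 1 time point are not fully independent of each other.

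**Figure D2:**
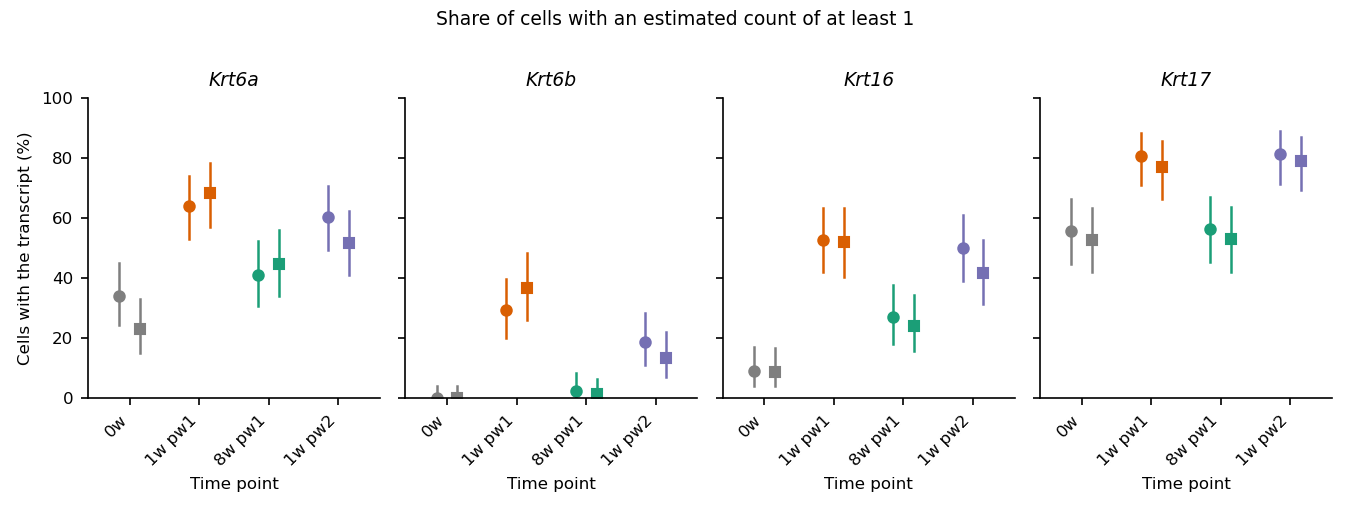
Percent of cells on each plate with an estimated count of at least 1 for each stress keratin, with exact 95% binomial intervals that cover counting error only. In each panel the 4 plates of 1w pw1 and 1w pw2 lie above the 4 plates of 0w and 8w pw1, and Krt17 runs from 52.7% to 81.4%.

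The amount per positive cell separated the genes further. In positive cells the median Krt6a level was 86.4 and 90.3 CPM on the 0w plates, 1424 and 627 CPM at 1w pw1, 412 and 482 CPM at 8w pw1, and 569 and 362 CPM at 1w pw2. The 8w pw1 cells with Krt6a therefore held more of it than those of unwounded skin on both plates. For Krt16 the medians were 9.78 and 17.1 CPM at 0w, 378 and 86.2 at 1w pw1, 79.0 and 34.4 at 8w pw1, and 83.2 and 212 at 1w pw2. For Krt17 they were 286 and 196 CPM at 0w, 688 and 410 at 1w pw1, 635 and 187 at 8w pw1, and 1198 and 1276 at 1w pw2, the highest of the time course on both plates.

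Much of each plate's sum came from few cells. The highest cell held 41.0% of all Krt6b counts of 1w pw1 replicate 1, with 101082 CPM of Krt6b, and 44.2% of those of 1w pw2 replicate 2. For Krt6a at 1w pw1 the highest cells held 17.8% and 13.3%, and for Krt17 9.86% and 10.8%. The 4 genes together made up at least 1% of a cell's counts in 3 and 1 cells at 0w, 19 and 13 at 1w pw1, 4 and 5 at 8w pw1, and 13 and 12 at 1w pw2, with a maximum of 16.0% in a cell of 1w pw1 replicate 1.

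Within single cells more of the genes were detected together during healing. At 0w 60 of 179 cells (33.5%) had none of the 4, 79 had 1, 35 had 2, 5 had 3 and 0 had all 4. At 1w pw1 13 of 168 cells (7.74%) had none and 40 (23.8%) had all 4. At 8w pw1 44 of 172 cells (25.6%) had none, 19 had 3 and 0 had all 4, and at 1w pw2 24 of 177 cells (13.6%) had none and 21 (11.9%) had all 4. Cells with the complete set were thus seen in the healing phases and in 0 of 179 and 0 of 172 cells at 0w and 8w pw1. Krt6b itself was detected in 0 cells at 0w and 3 at 8w pw1, which bounds the complete set at those times. Higher shares of the single genes raise such counts by themselves, and a share expected from them was not computed.

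At least 3 of the 4 genes were detected in 3.41% and 2.20% of cells at 0w, 43.8% and 45.6% at 1w pw1, 7.06% and 14.9% at 8w pw1, and 37.2% and 29.7% at 1w pw2. The healing plates averaged 39.1% and the others 6.90%, a difference of 32.2 percentage points. Depth moved with this count. Cells with at least 3 genes held a median of 250520 counts on 1w pw1 replicate 1 and 134539 on 1w pw2 replicate 1, against 169142 and 92536 in cells with none, and on each of the 8 plates they were the deeper. With each cell thinned to 20000 counts, leaving out 51 shallower cells, the difference was 24.0 points. With a positive cell set at 10 counts it was 21.1 points, and at 100 CPM it was 18.3 points.

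**Figure D3:**
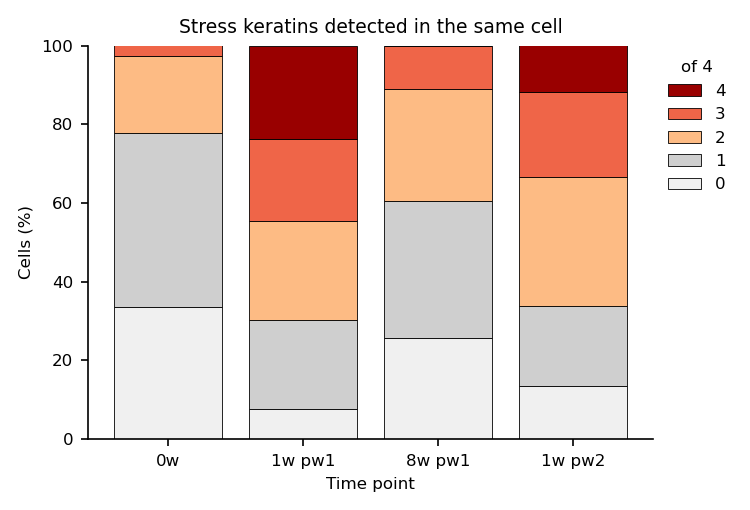
Percent of cells at each time point, both plates together, in which 0, 1, 2, 3 or 4 of the stress keratins were detected at an estimated count of at least 1. All 4 were found together in 23.8% of cells in the first healing and 11.9% in the second. They were found together in 0 cells at 0w and 8w pw1, where Krt6b itself was detected in 0 and 3 cells.

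Some combinations were far more frequent than others. Krt17 alone was the most frequent pattern (150 cells), followed by none (141), Krt6a with Krt17 (120), Krt6a with Krt16 and Krt17 (81) and all 4 (61). Krt6b was almost never without company, with 1 cell that had Krt6b and none of the others. Krt6a alone was found in 41 cells, 16 of them at 0w and 16 at 8w pw1, and Krt16 with Krt17 but no Krt6 gene in 40 cells.

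Cells with Krt6b were mostly cells with the 3 other genes. At 1w pw1, of 55 Krt6b-positive cells 50 had Krt6a (90.9%), 47 had Krt16 (85.5%) and 49 had Krt17 (89.1%). In the 113 cells without Krt6b the shares were 54.0% for Krt6a, 36.3% for Krt16 and 74.3% for Krt17. At 1w pw2 25 of 28 Krt6b-positive cells had Krt6a (89.3%, against 49.7% of cells without Krt6b), 23 had Krt16 (82.1% against 38.9%) and 25 had Krt17 (89.3% against 78.5%). For Krt17 the 2 plates differed, at 81.3% against 81.4% on replicate 1 and 100% against 75.9% on replicate 2. At 8w pw1, with almost no Krt6b, 29 of 44 Krt16-positive cells had Krt6a (65.9%), against 35.2% of the cells without Krt16.

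As a description over the cells of a plate, which share its library and differ in depth, Spearman's rho at 1w pw1 was higher among Krt6a, Krt6b and Krt16 than between any of them and Krt17. There, over 89 and 79 cells, it was 0.63 and 0.62 for Krt6a with Krt6b, 0.58 and 0.56 for Krt6a with Krt16, and 0.63 and 0.75 for Krt6b with Krt16. Krt6a with Krt17 gave 0.25 and 0.35 on those plates and 0.02 to 0.35 over all 8, and on the 0w plates (0.26 and 0.17) it lay above Krt6a with Krt16 (0.12 and 0.09). Krt17 with Krt6b gave 0.10 and 0.12 at 1w pw1 and -0.10 to 0.12 over the 6 plates that held Krt6b. Krt16 and Krt17, both type I and neighbours on chromosome 11, reached at most 0.25 on any of the 8 plates.

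The pooled balance of the near-identical pair was followed over the plates as a description. Krt6b made up 47.0% and 43.3% of the summed Krt6a and Krt6b counts at 1w pw1, 0.0752% and 0.0202% at 8w pw1, and 7.97% and 19.2% at 1w pw2. These pooled shares were carried by few cells, since among cells with at least 10 counts of the pair the median share of Krt6b was 1.47% and 4.05% at 1w pw1 and 0 on both plates of 1w pw2. Cells in which Krt6b exceeded Krt6a, among those with at least 10 counts of the pair, numbered 4 and 7 at 1w pw1 and 1 and 1 at 1w pw2. Krt6b went with a high level of Krt6a. At 1w pw1 the median Krt6a level was 3970 and 3412 CPM in Krt6b-positive cells, against 181 and 206 CPM in Krt6a-positive cells without Krt6b. At 1w pw2 it was 1396 and 2168 CPM against 366 and 283 CPM. Reads from the windows that both genes share are divided by estimation, and their part in these values was not tested.

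**Figure D4:**
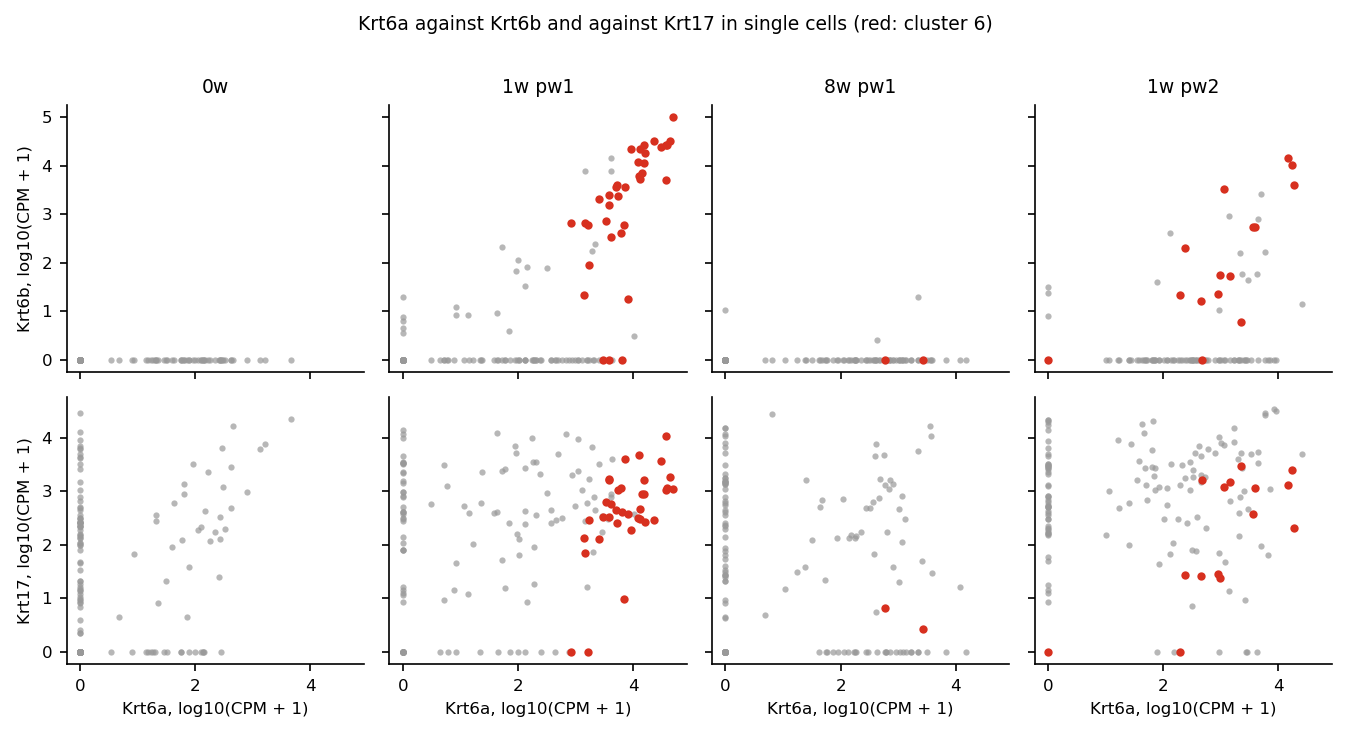
Krt6a against Krt6b (upper row) and against Krt17 (lower row) in each single cell by time point, as log10(CPM + 1), with cells of the cluster led by S100a9 and S100a8 in red. At 1w pw1 Krt6b appears mainly in cells high in Krt6a, whereas Krt17 spreads over the whole range of Krt6a.

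To see which cells held the genes, cells were clustered on 2000 variable genes without the stress keratins, into 11 clusters. This describes these cells and tests nothing. A cluster of 53 cells led by S100a9, S100a8, Tslp and Fabp5, of which 36 were from 1w pw1, 2 from 8w pw1 and 15 from 1w pw2, held 74.4% of all Krt6a counts, 94.0% of all Krt6b counts and 86.4% of all Krt16 counts, but 8.12% of all Krt17 counts. These shares are set by the first healing, where it held 94.9% and 80.9% of the Krt6a counts on the 2 plates, 98.9% and 86.5% of Krt6b and 96.0% and 94.8% of Krt16. On the 1w pw2 plates it held 13% and 52.3% of Krt6a, 47.4% and 92.5% of Krt6b, and 40.9% and 67.9% of Krt16. S100a8 and S100a9 encode the subunits of the alarmin calprotectin. In it 98.1% of cells had Krt6a, 86.8% Krt6b, 96.2% Krt16 and 92.5% Krt17, and 51 of the 53 cells had at least 3 of the 4 genes. It was given no cell type name, since none of the listed markers was among its leading genes. Of the marker lists, cycling had the highest mean log2 difference from other cells (1.14), with 5 of 5 markers detected. The basal keratinocyte list was at 0.24, also with 5 of 5 detected. Its cells were deep, with a median of 260616 counts.

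Krt17 had other homes. Of its counts 35.7% lay in the upper follicle duct-like cluster (Defb6 and Klk10 among its markers), where 94.1% of cells had it, 23.3% in a cluster of 39 cells led by Flg and Rptn, 13.7% in a cluster led by Bbox1 and Serpinb3b, and 9.59% in the bulge-like cluster (49 cells, Krt15). The order of clusters by Krt17 counts changed with time, and 47.8% of all Krt17 counts were from 1w pw2. At 0w the Aspn cluster (8 cells) held 33.5% of the Krt17 counts of that time point, the Flg cluster 23.6% and the duct-like cluster 20.6%. At 1w pw1 the duct-like cluster held 44.2%, the S100a9 cluster 27.4% and the Flg cluster 1.60%. The duct-like and Flg clusters held 48.0% and 37.1% at 8w pw1, and 32.5% and 28.5% at 1w pw2. These shares depend on the number of clusters, since the cluster with most Krt17 counts held 59.0% of them with 8 clusters, and with 14 the duct-like cells split into clusters with 19.4% and 16.4%, behind the Flg cluster with 23.3%. The Flg cluster had the highest mean, at 9814 CPM. It also scored higher on the upper follicle duct marker list than the cluster named duct-like, with 5 of 5 markers detected in each. The duct list therefore does not set these clusters apart. In the duct-like cluster mean Krt17 was 1597 CPM in unwounded skin (13 cells), 1929 at 1w pw1 (40 cells), 2104 at 8w pw1 (18 cells) and 4115 at 1w pw2 (30 cells, 22 of them on replicate 1), with medians of 262, 806, 1092 and 1601 CPM. With 14 clusters the part with Defb6 had means of 1481, 2012, 985 and 3529 CPM at these times (4, 19, 11 and 25 cells). There the 8w pw1 mean lay below that of 0w. On the duct marker list the part with Defb6 scored lower than the part with Klk10 and the Flg cluster. The part with Klk10 had means of 1648, 1853, 3862 and 7045 CPM (9, 21, 7 and 5 cells). Of the 80 cells in the Bbox1 cluster 74 came from replicate 2 plates, and of the 39 in the Flg cluster 34 came from replicate 1 plates, so plate and cell type cannot be told apart in either.

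Cells of the sebaceous gland-like cluster (59 cells, Scd1 and Mgst1) gave the lowest share of each gene (for Krt6b shared with the cluster led by Tbcel), with Krt6a in 1 cell, Krt6b in 0, Krt16 in 1 and Krt17 in 11, at a median depth of 253848 counts. That is 1.69% of its cells for Krt6a and Krt16 and 18.6% for Krt17, and no background share was measured. With 14 clusters 37 of these cells (24 from 0w) had the cycling gene Mki67 among their leading genes. The other 22 (13 from 0w) were led by Soat1 and Scd1. The Aspn cluster, by contrast, had Krt6a in 81.6% and Krt17 in 79.6% of its cells but Krt16 in 20.4% and Krt6b in 6.12%. There mean Krt6a was 1076 CPM at 0w (8 cells), 1074 at 1w pw1 (9 cells), 2756 at 8w pw1 (10 cells) and 1064 at 1w pw2 (22 cells), with medians of 369, 882, 223 and 149 CPM.

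Suprabasal keratinocyte-like cells (52 cells, Krt1 and Krt10) were the next most frequent carriers of Krt6b, at 28.8% of cells, and had Krt16 in 55.8%. In the cluster led by Mmp3 and Slc38a4 mean Krt6a was 40.8 CPM at 0w (51 cells), 1136 at 1w pw1 (10 cells), 489 at 8w pw1 (29 cells) and 1331 at 1w pw2 (11 cells). Krt16 in that cluster was found in 5 of 51, 3 of 10, 9 of 29 and 10 of 11 cells at these times. With 14 clusters these cells split into a part led by Mmp3 and a part with Lgr5 among its leading genes. Of the 10 cells at 1w pw1, 9 fell in the Lgr5 part, while 28 of the 29 at 8w pw1 fell in the Mmp3 part. At 0w Krt6a was found in 22 of 36 cells of the Mmp3 part and in 2 of 15 of the Lgr5 part. The values at 1w pw1 and 8w pw1 thus come largely from different parts of the cluster.

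**Figure D5:**
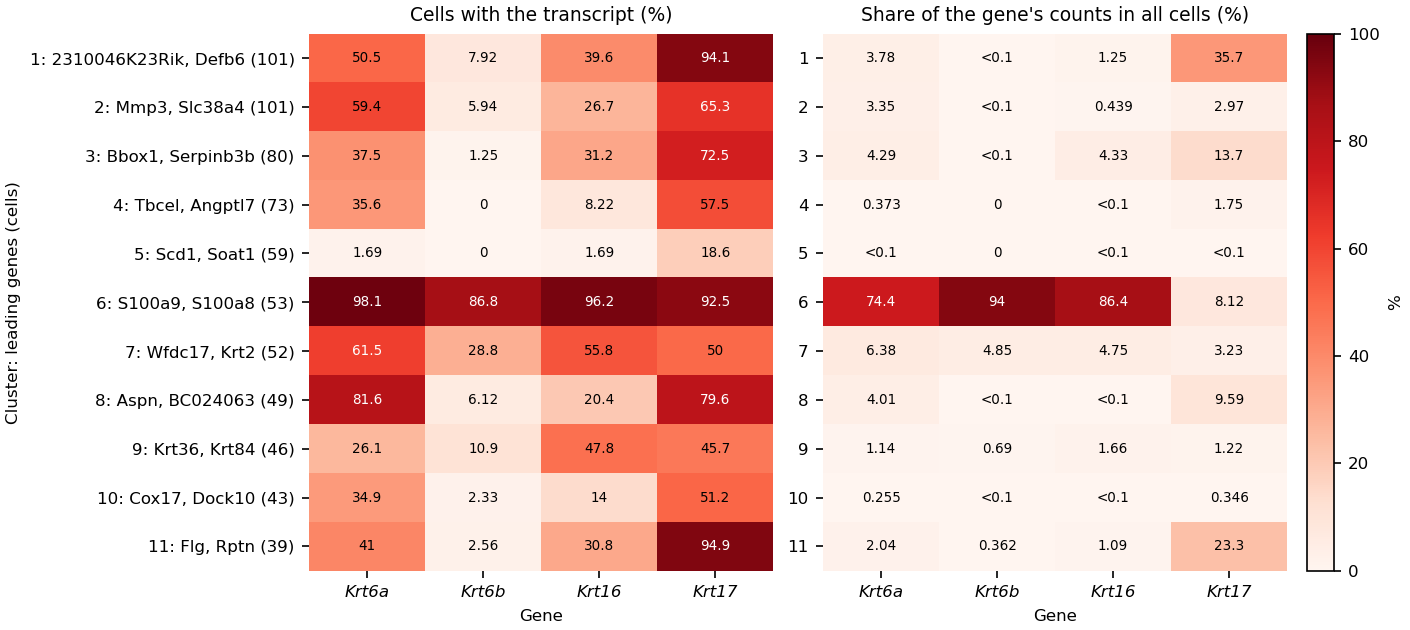
For each of the 11 clusters, labelled with 2 leading genes and the number of cells, the percent of cells with each stress keratin (left) and the percent of each gene's counts over all cells that the cluster holds (right). The cluster led by S100a9 and S100a8 holds 74.4% of Krt6a, 94.0% of Krt6b and 86.4% of Krt16 counts, while 35.7% of Krt17 counts lie in the cluster led by 2310046K23Rik and Defb6.

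Outside the S100a9 cluster a wound still showed in the shares. Krt16 was found in 39.7% and 40.6% of the remaining cells at 1w pw1 and in 48.1% and 34.6% at 1w pw2, against 9.09% and 8.79% at 0w and 27.1% and 22.4% at 8w pw1. Mean Krt6a in those cells was 112 and 46.0 CPM at 0w, 380 and 577 at 1w pw1, 409 and 593 at 8w pw1, and 974 and 742 at 1w pw2. In the remaining cells the plates of 1w pw1 overlapped those of 8w pw1 in Krt6a, and those of 1w pw2 stood highest, which is another order than over all cells.

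The genes most like each member over cells, by Pearson's r of log2(CPM + 1) over 696 cells after plate means were subtracted, differed between members. For Krt6b they were S100a9 (0.81), S100a8 (0.74) and Sprr2h (0.73), a cornified envelope gene. Those of Krt16 were Krt6b (0.62), S100a9 (0.57) and S100a8 (0.56). Krt6a came with the basal keratin Krt5 (0.48), Krt6b (0.46) and S100a6 (0.46). Those given for Krt17 are Cst6 (0.50), a cystatin, and Teddm3 (0.47), whereas r was 0.25 with Krt6a, 0.17 with Krt16 and 0.08 with Krt6b. These r describe cells that share libraries and depth.

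Over the 8 plates, which share time points in pairs, the nearest genes of Krt6a were Krt16 (r = 0.99), Il1f9 (0.97), an interleukin-1 family cytokine, and Tmem43 (0.97). Those of Krt16 were Krt6a (0.99), Il1f9 (0.98) and Cltb (0.98), and those of Krt6b were Stfa2 (1.00), Cstdc6 (0.99) and Sprr2h (0.99). Krt17 was followed by Dlgap4, Lingo1 and Slc15a4 (each 0.98), and its own r with the other members was 0.53 to 0.61. As the members were compared with 13325 genes on 8 points that fall into time points, these values are descriptions.

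Of 33 further keratin genes 30 were tested, and edgeR called 2 higher at 1w pw1 against 0w (DESeq2 called 9, beside 0.527% of all genes with edgeR and 5.22% with DESeq2), Krt2 (log2 fold change 10.13, SE 1.49, adjusted p = 0.0209) and Krt10 (4.16, SE 0.66, adjusted p = 0.0276), both suprabasal keratins. In the second healing edgeR called Krt2 against 0w (9.95, SE 1.48, adjusted p = 0.0309) and DESeq2 called 11 of the list (0.267% and 4.97% of all genes), and edgeR called 0 in the other 5 contrasts, where 4 to 9 had an unadjusted p below 0.05 and DESeq2 called 0 to 6. The list's median log2 fold change against 0w was 1.10 in the first and 1.59 in the second healing, beside -0.04 and 0.05 over all genes. The neighbours of the members did not pass the test at 1w pw1 against 0w, with Krt5 at -0.38 (adjusted p = 0.845), Krt14 at 2.10 (adjusted p = 0.0721), Krt75 at 1.60 (adjusted p = 0.789) and Krt42 at 1.0 (adjusted p = 0.831).

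Among 45 genes linked to keratinocyte activation in wounds, 42 were tested. At 1w pw1 against 0w edgeR called 3 higher, Il1f9 (log2 fold change 6.26, SE 0.80, adjusted p = 0.0128) and the cornified envelope genes Sprr1b (11.05, SE 1.34, adjusted p = 0.0127) and Sprr2h (adjusted p = 0.0197), which had 1 count at 0w. In the second healing it called 2 against 0w, Il1f9 (5.45, SE 0.77, adjusted p = 0.0273) and Sprr1b (10.66, SE 1.32, adjusted p = 0.0182). From 1w pw1 to 8w pw1 the gap junction gene Gjb2 (-5.13, adjusted p = 0.0449) and Sprr1b (-9.36, adjusted p = 0.0284) fell. The sizes of the Sprr1b changes rest on few counts. It had 0 and 8 on the 0w plates (in 0 and 1 cells) and 18 and 2 at 8w pw1 (in 2 and 1 cells). DESeq2 called 15, 11 and 8 of the list in these 3 contrasts. Over all genes edgeR called 0.527%, 0.267% and 0.115%, and DESeq2 5.22%, 4.97% and 4.05%. The list's median was 3.21, 2.66 and -2.43 in these contrasts, beside -0.04, 0.05 and 0.09 over all genes. Of 21 regulators linked to stress keratin transcription, among them Stat3, Nfe2l2, Fosl1 and Egfr, edgeR called 0 in each of the 7 contrasts (0 to 6 had an unadjusted p below 0.05, and DESeq2 called 0 to 3), and their median log2 fold change at 1w pw1 against 0w was 0.13.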

How the data were processed

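Smart-seq2 libraries (whole transcripts, 25 PCR cycles, 75-base single-end reads, no molecular identifiers) were made from sorted single cells. The authors deposited expected counts, estimated per gene and cell with Salmon 0.13.1 on GRCm38 (Ensembl annotation) and not normalised; the submitters' notes also name R 4.0.3 and Seurat. Exactly whole numbers were 96.6% of the values with zeros included and 87.8% of those above 0, and 0 columns had no sample. Genes, lists and tests were chosen with earlier results of these data known. The named genes are the members, list genes called in a contrast, the keratin neighbours and the 3 genes most like each member per scale, of which 1 is not reported here.

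Counts were summed per plate, rounded and fitted over all 8 plates with edgeR 4.0.16 in R 4.3.3 (TMM, default low-count filter, time point as the only term, quasi-likelihood test, Benjamini-Hochberg over all genes; biological coefficient of variation 0.61, 4 residual degrees of freedom). Replicate plates were not identical (r 0.852 to 0.917 across genes). DESeq2 1.42.0, other filters, cell weightings and left-out plates were alternatives. The edgeR script was tested on simulated data. Shares used exact permutation tests, given unadjusted, and co-detection was left without a p, although an adjustment over the 5 shares had been planned. Cells were clustered (Ward, 20 components of log2(CPM + 10), no batch correction, doublets not removed) among genes found in at least 35 cells, and plate likeness used log2(CPM + 0.5). Intervals and floors of 3 counts cover counting error only.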

Additional observations from a re-analysis of the deposited data

How the results depend on the processing

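Of the counts of called stress keratins, 95 held within 1.5 times under the alternatives and 17 moved, and of the log2 fold changes of single members 413 kept direction and call, 11 gained a call, 22 lost it and 2 reversed. Of the differences in share 53 held, 9 no longer passed 0.05 and 3 moved, and of the co-detection and cluster descriptions 8 held and 8 moved. The reversed values were those of Krt17 without a 0w plate, at -0.073 for 8w pw1 against 0w (without replicate 2; up to 1.32 with another plate left out) and -0.16 for the difference between the healings (without replicate 1; up to 1.22). With DESeq2 2 of 4 genes were called in 8w pw1 against 0w, 3 in 1w pw2 against 8w pw1, 2 in 1w pw2 against 1w pw1 and 3 for the difference between the healings, and it called 723, 688, 155, 561, 281, 41 and 77 genes in the 7 contrasts in the order of the report. In 1w pw2 against 8w pw1, 0 were called with every cell scaled equally and 0 with Krt6a and Krt6b summed (then both count as called or not). Leaving out 1 plate at a time gave 3 to 3 called genes in 1w pw1 against 0w, 0 to 3 in 1w pw2 against 0w and in 8w pw1 against 1w pw1, and 0 to 1 in 1w pw2 against 8w pw1; the lone plate is then assumed to vary like the others, and the cause beyond the fewer plates was not tested.

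Replicate numbers are shared between time points, with 2 pairs per contrast and correlations of 0.121 to 0.213 between same-numbered deviations in all 6 pairs of time points. The labels do not say what the number marks, and with 2 pairs per contrast it was not taken to pair the plates, though Krt17 was higher on replicate 1 at each time point. With the replicate block 236, 96, 3, 110, 8, 0 and 3 genes were called over the 7 contrasts, and 1 stress keratin for the difference between the healings. Splits within replicate numbers leave the share differences the same by construction, at 25.3 (Krt6a), 23.6 (Krt6b), 31.8 (Krt16) and 25.2 points (Krt17). Each had an exact permutation p of 0.0556 there, the smallest of its 36 splits. Leaving out 1 plate gave 21.1 to 28.5, 19.5 to 27.3, 29.0 to 35.1 and 24.6 to 26.0 points, with an exact p of at most 0.0571 (Krt6a without 0w replicate 2, Krt6b without any 0w or 8w pw1 plate).

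The difference in cells with at least 3 genes was 21.1 points at a minimum of 10 counts, 18.3 at 100 CPM, 24.0 after thinning and 30.0 to 35.3 with 1 plate left out. Among Krt6b-positive cells the share with Krt6a was 100% at 10 counts and 98.3% after thinning, and that with Krt16 was 92.5% at 10 counts. At 10 counts 78.0% of Krt16-positive cells had Krt6a, and of Krt17-positive cells 50.1% had Krt6a, or 53.1% after thinning. The largest share of Krt17 counts in a cluster was 59.0% with 8 clusters and 23.3% with 14. Depth limits low values: 51 cells held under 20000 counts, and a gene at a few counts per plate can be missed.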
